A study of Mus musculus with 12 samples.

Results

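Collagen chains, the subunits of the fibre- and network-forming proteins of the extracellular matrix, were followed in the livers of mice conceived by natural mating or by in vitro fertilization (IVF). The members were the genes with a symbol made of Col, a number, a and a further number. Only probe sets that the platform annotation ties to 1 gene were used, and the probe set with the highest mean over the 12 arrays stood for each symbol. This gave 44 chains of 19937 gene symbols, from 46 probe sets, since Col6a5 and Col6a6 each had a further probe set. All 44 symbols matched a RefSeq gene table by Entrez identifier.

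Total liver RNA from 12 male mice was hybridized to Affymetrix Mouse Gene 1.0 ST arrays, each mouse on its own array. There were 3 mice in a group: WT mice from natural mating, WT mice from IVF, Atf7-/- mice from natural mating and Atf7-/- mice from IVF, all on a C57BL6/JJmsSlc background and 4 weeks old by the sample labels. ATF7 is a stress-responsive transcription factor of the ATF/CREB family that silences genes through histone H3K9 methylation, and the Atf7-/- mice had Atf7-/- fathers and mothers. WT and Atf7-/- mice therefore came from separate matings and were not littermates. IVF mice came from superovulated donors, were fertilized and cultured in HTF medium, and were carried by pseudopregnant ICR females, so that hormone treatment, fertilization, culture and recipient strain cannot be told apart. Within a group no naturally mated mother or IVF recipient gave more than 1 liver, which makes the replicates separate animals. Oocytes of several donors shared the fertilization medium, so IVF replicates may share a donor mother or a father, which is not given. The study asked whether IVF leaves a lasting change in liver gene expression and whether this needs ATF7.

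Collagens are triple helices of α chains, some built from copies of a single chain and others from products of different genes. Fibrillar collagens (types I, II, III, V, XI, XXIV and XXVII) form banded fibres, type IV forms the sheet of basement membranes, type VI forms beaded filaments, and FACIT collagens such as types XII and XIV sit on the surface of fibres. In healthy liver, fibres of types I, III and V lie mainly in portal tracts, around central veins and in the capsule, while thin layers of types IV, VI and XVIII line vessels and sinusoids. Portal fibroblasts and activated hepatic stellate cells are the known sources of fibrillar chains, endothelial cells contribute type IV, and hepatocytes make type XVIII. In fibrosis the fibrillar chains accumulate.

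All values are log2 expression values made by the authors with robust multiarray averaging (RMA), and probe sets of different genes differ in brightness for technical reasons, so levels were compared between groups and never between genes. Array medians lay between 6.22 and 6.34, and arrays of 1 group correlated with r from 0.980 to 0.990. The Atf7 probe set 10433032 read 8.58 to 8.94 on the WT natural mating arrays, 7.56 to 8.38 in WT IVF, 5.82 to 6.11 in Atf7-/- natural mating and 5.34 to 5.68 in Atf7-/- IVF, so that every array sat with its labelled genotype. For IVF in WT this probe set also fell, by 0.74 on the log2 scale (adjusted P-value 0.0384). A further Atf7 probe set, 10433034, differed by -0.26 for IVF in WT (adjusted P-value 0.190) and by -0.34 with ATF7 loss in natural mating (adjusted P-value 0.0758), and its place relative to the deleted part was not read here. Of the 44 chains, 16 had a mean under 6.5, near the array median, 20 lay between 6.5 and 7.5, and 8 lay above 7.5. Background probes were not read, so a dim chain cannot be called absent. In whole liver, fewer cells of a type and less RNA per cell cannot be told apart.

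No collagen chain was called in any comparison. Genes were called by limma at an adjusted P-value (Benjamini-Hochberg over all 34760 probe sets) not above 0.05 together with a log2 fold change (log2FC) of at least 0.6 in size, the thresholds of the study. With these, 0 of 44 chains were called for IVF in WT, where 4.52% of all probe sets were (2.85% higher and 1.67% lower). It was 0 of 44 for IVF in Atf7-/-, against 6.78% of all probe sets (3.27% higher and 3.51% lower), and 0 of 44 for ATF7 loss in natural mating, against 7.50% (3.83% higher and 3.67% lower). For ATF7 loss in IVF it was 0 of 44 and 0.00575%, and for the interaction, the IVF effect in Atf7-/- minus that in WT, 0 of 44 and 6.18% (2.72% higher and 3.46% lower). At an unadjusted p under 0.05, limma held 9, 2, 2, 1 and 3 chains in these 5 comparisons in the same order, where 24.9%, 26.0%, 26.6%, 6.12% and 22.1% of all probe sets had such a p.

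The sizes were small as well. Log2FC of the 44 chains ran from -0.39 to 0.52 for IVF in WT, from -0.37 to 0.45 for IVF in Atf7-/-, from -0.23 to 0.52 for ATF7 loss in natural mating, from -0.30 to 0.28 for ATF7 loss in IVF and from -0.65 to 0.35 for the interaction. The 95% confidence interval lay wholly within 0.6 on either side of 0 for 37 chains in the first comparison, and for 39, 38, 43 and 31 in the others. For those chains a change as large as the threshold lies outside the interval, while for the remaining ones (7, 5, 6, 1 and 13) it does not. The plot of log2FC with intervals shows which chains these were.

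**Figure D1:**
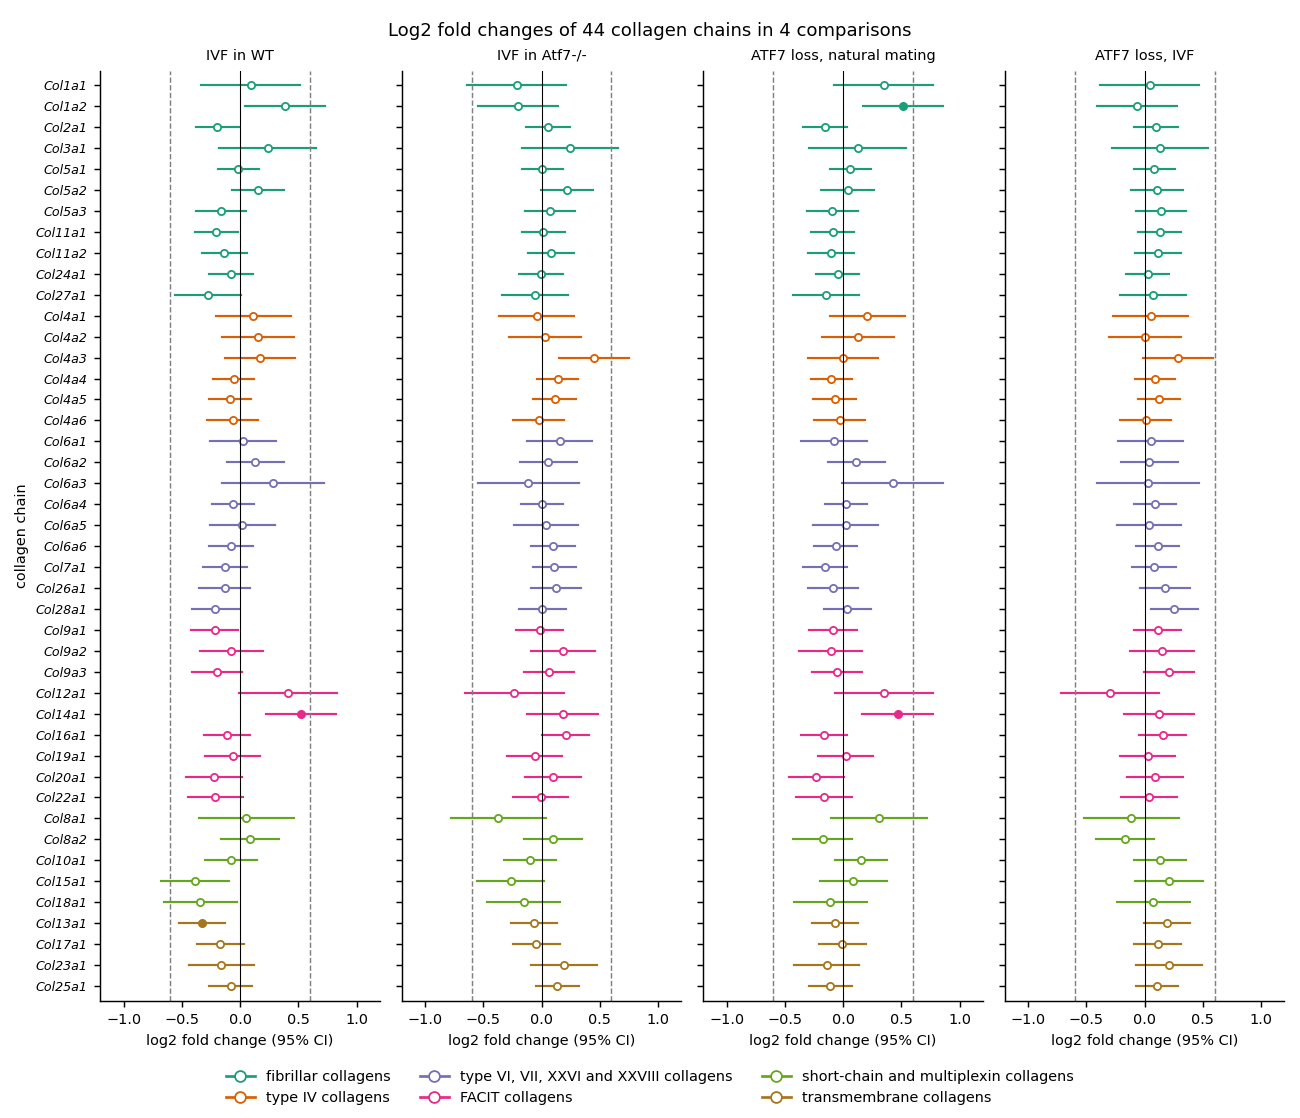
Log2 fold changes (x axis) of the 44 collagen chains (y axis, coloured by class) in the 4 comparisons of 2 groups, with 95% confidence intervals from limma. Dashed lines mark 0.6 on either side of 0, filled points have an adjusted P-value of at most 0.05 (Col14a1 and Col13a1 for IVF in WT, Col14a1 and Col1a2 for ATF7 loss in natural mating), and no point reaches a dashed line.

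Without the fold threshold, 2 chains passed for IVF in WT, Col14a1 higher and Col13a1 lower, where 8.62% of all probe sets passed (5.13% higher and 3.49% lower). For ATF7 loss in natural mating, Col14a1 and Col1a2 passed, both higher, where 13.7% of all probe sets passed (7.27% higher and 6.44% lower). It was 0 of 44 for IVF in Atf7-/- (12.9% of all probe sets, 6.12% higher and 6.82% lower), 0 for ATF7 loss in IVF (0.00575%) and 0 for the interaction (7.25%, with 3.10% higher and 4.15% lower). The IVF effect in WT and ATF7 loss in natural mating are both measured against the same 3 WT natural mating arrays, so a chain low in those arrays is higher in both.

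Col14a1 encodes the chain of type XIV collagen, a FACIT collagen that binds fibrils and regulates their diameter. Its log2 values were 9.31, 9.55 and 9.01 on the WT natural mating arrays, 9.71, 9.97 and 9.77 in WT IVF, 9.61, 9.90 and 9.76 in Atf7-/- natural mating, and 9.85, 9.99 and 9.98 in Atf7-/- IVF. All 3 WT natural mating arrays lay below the other 9. The log2FC was 0.52 (SE 0.14, adjusted P-value 0.0398) for IVF in WT and 0.47 (SE 0.14, adjusted P-value 0.0447) for ATF7 loss in natural mating. In Atf7-/- mice IVF gave 0.18 (adjusted P-value 0.473), and the interaction of -0.34 (SE 0.19, adjusted P-value 0.338) did not pass, so a difference between the genotypes was not shown. Without WT natural mating replicate 2 the log2FC for IVF in WT was 0.65 (adjusted P-value 0.0274) and Col14a1 was called. Over all the alternatives this log2FC ran from 0.38 to 0.65, with adjusted P-values of limma from 0.0184 to 0.130. For ATF7 loss in natural mating the log2FC of Col14a1 ran from 0.328 to 0.598, with adjusted P-values of limma from 0.0199 to 0.1501. Both passes of Col14a1 were thus lost in some alternatives.

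Col12a1, the type XII counterpart of Col14a1 on fibril surfaces, read 5.43, 5.87 and 6.25 on the WT natural mating arrays, 6.24, 6.31 and 6.25 in WT IVF, 5.93, 6.36 and 6.31 in Atf7-/- natural mating, and 5.85, 6.20 and 5.85 in Atf7-/- IVF. WT IVF overlapped WT natural mating because 1 of the latter arrays was as high as the IVF arrays. The log2FC of 0.42 (SE 0.19, adjusted P-value 0.207) for IVF in WT and -0.23 (adjusted P-value 0.513) for IVF in Atf7-/- gave an interaction of -0.65 (SE 0.27, adjusted P-value 0.187), the largest of any chain in size. Without WT natural mating replicate 1 the value of Col12a1 for IVF in WT was 0.20. The other 7 FACIT chains (Col9a1, Col9a2, Col9a3, Col16a1, Col19a1, Col20a1 and Col22a1) were not called either, and the 9 measured FACIT chains together had a median log2FC of -0.11 for IVF in WT, where the median of all probe sets was -0.04.

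Type I collagen, the main fibre of scar tissue, is built from Col1a1 and Col1a2. Col1a2 read 7.96, 8.27 and 7.81 on the WT natural mating arrays, 8.29, 8.55 and 8.37 in WT IVF, 8.25, 8.84 and 8.51 in Atf7-/- natural mating, and 8.41, 8.27 and 8.31 in Atf7-/- IVF. All 3 WT IVF arrays lay above WT natural mating, the lowest by a narrow margin. The log2FC was 0.38 (SE 0.16, 95% CI 0.04 to 0.73, adjusted P-value 0.157) for IVF in WT and 0.52 (SE 0.16, adjusted P-value 0.0498) for ATF7 loss in natural mating. In Atf7-/- mice IVF gave -0.20 (adjusted P-value 0.481), and the interaction was -0.59 (SE 0.22, adjusted P-value 0.145). Leaving out WT natural mating replicate 2 or Atf7-/- natural mating replicate 1 took the log2FC for ATF7 loss in natural mating to 0.65 and 0.66 (adjusted P-values 0.0304 and 0.0267), past the fold threshold. The full range of this log2FC over the alternatives was 0.37 to 0.66, with adjusted P-values of limma from 0.0254 to 0.170. The pass at 0.0498 was therefore lost in some of them.

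Col1a1 read 8.06, 8.52 and 7.81 on the WT natural mating arrays, 8.23, 8.26 and 8.19 in WT IVF, 8.18, 8.87 and 8.39 in Atf7-/- natural mating, and 8.39, 8.18 and 8.23 in Atf7-/- IVF. The groups overlapped in each comparison, and both natural mating groups were more spread than both IVF groups. The log2FC was 0.09 (adjusted P-value 0.810) for IVF in WT and 0.35 (SE 0.19, adjusted P-value 0.292) for ATF7 loss in natural mating. For Col3a1, the chain of type III collagen that accompanies type I in liver, the WT natural mating arrays read 8.64, 9.03 and 8.18 and the WT IVF arrays 8.80, 8.88 and 8.88, a log2FC of 0.24 (SE 0.19, adjusted P-value 0.477) that was 0.02 without WT natural mating replicate 3. Its values were 8.56, 9.00 and 8.66 in Atf7-/- natural mating and 8.89, 8.92 and 9.14 in Atf7-/- IVF, where IVF gave 0.25 (adjusted P-value 0.477).

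The type V chains help set the width of type I fibrils. Col5a1 lay between 7.42 and 7.62 on all 12 arrays, and its log2FC ran from -0.02 for IVF in WT to 0.08 for ATF7 loss in IVF. Col5a2 gave 0.15 for IVF in WT and 0.22 for IVF in Atf7-/-, with neither passing. The remaining fibrillar chains are Col2a1, Col11a1, Col11a2, Col24a1, Col27a1 and Col5a3, of which types II and XI are known from cartilage. Over the 11 fibrillar chains the median log2FC was -0.08 for IVF in WT, 0.01 for IVF in Atf7-/-, -0.05 for ATF7 loss in natural mating and 0.10 for ATF7 loss in IVF.

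**Figure D2:**
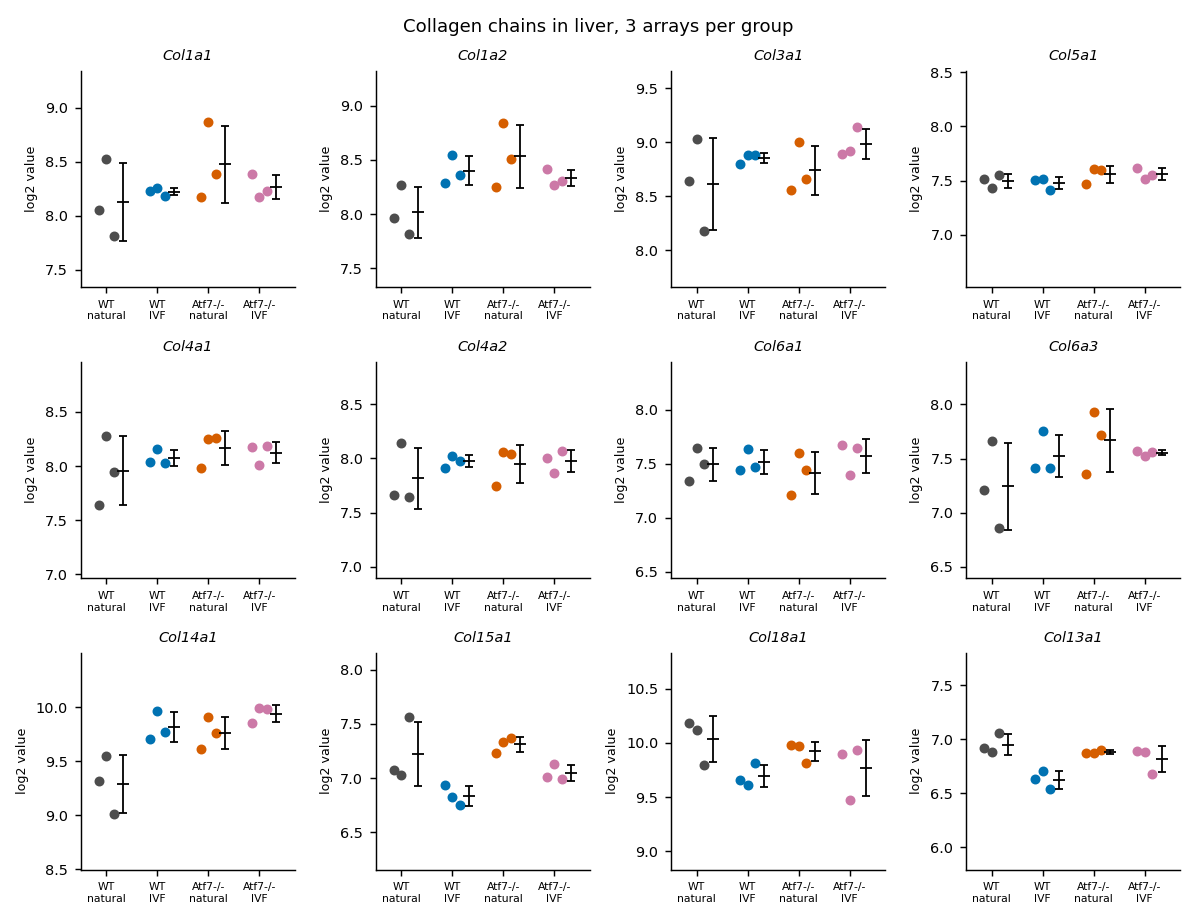
Log2 values (y axis, 2 log2 units in every panel) of 12 collagen chains on each array of the 4 groups, with bars for mean and SD (n = 3). Col14a1 was low on all 3 WT natural mating arrays, Col13a1 and Col15a1 were lower on all 3 WT IVF arrays than on any WT natural mating array, and the groups of Col1a1, Col4a1 and Col6a1 overlapped.

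Type IV collagen of sinusoids and vessels is built from Col4a1 and Col4a2, and neither differed between groups beyond its spread. Col4a1 read 7.64, 8.28 and 7.95 on the WT natural mating arrays, 8.04, 8.16 and 8.02 in WT IVF, 7.99, 8.25 and 8.26 in Atf7-/- natural mating, and 8.17, 8.01 and 8.19 in Atf7-/- IVF. Its log2FC was 0.11 (95% CI -0.21 to 0.44) for IVF in WT, and that of Col4a2 was 0.16 (95% CI -0.15 to 0.46). Col4a3, a chain of the specialised basement membrane of kidney and lung, gave the largest value for IVF in Atf7-/-. It read 6.31, 6.55 and 6.36 in Atf7-/- natural mating and 7.16, 6.68 and 6.73 in Atf7-/- IVF, and the groups did not overlap. The log2FC of 0.45 (SE 0.14, adjusted P-value 0.0532) passed neither threshold. In WT, Col4a3 read 6.25, 6.57 and 6.40 after natural mating and 6.64, 6.51 and 6.58 after IVF, a log2FC of 0.17 (adjusted P-value 0.489). Col4a4, Col4a5 and Col4a6 were not called.

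Type VI collagen is assembled from Col6a1, Col6a2 and Col6a3 in the matrix around portal fibroblasts and vessels. Col6a3 read 7.21, 7.66 and 6.86 on the WT natural mating arrays, 7.41, 7.75 and 7.41 in WT IVF, 7.35, 7.93 and 7.72 in Atf7-/- natural mating, and 7.57, 7.53 and 7.56 in Atf7-/- IVF. The 4 groups overlapped, and the Atf7-/- IVF arrays were the tightest. The log2FC was 0.28 (SE 0.20, adjusted P-value 0.417) for IVF in WT and 0.42 (SE 0.20, adjusted P-value 0.201) for ATF7 loss in natural mating. Without WT natural mating replicate 3, the lowest array of Col6a3, these were 0.09 and 0.23. Col6a1 gave 0.02 and -0.08 in these comparisons, and Col6a2 0.13 and 0.11. Col6a2 for ATF7 loss in natural mating stood at -0.01 without Atf7-/- natural mating replicate 2, so its direction rests on that array. The further probe sets of Col6a5 and Col6a6, dimmer than those used, gave log2FC of 0.18 and -0.12 for IVF in WT, beside 0.02 and -0.08 from the brighter ones. None of the 9 chains of types VI, VII, XXVI and XXVIII was called. Among them Col28a1, a chain related to type VI, gave 0.26 (SE 0.09, adjusted P-value 0.779) for ATF7 loss in IVF, with 5.56, 5.62 and 5.44 in WT IVF and 5.88, 5.85 and 5.66 in Atf7-/- IVF.

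Col15a1 and Col18a1 encode multiplexins, basement membrane collagens whose C-terminal fragments (endostatin for type XVIII) restrain vessel growth. Col15a1 read 7.08, 7.03 and 7.56 on the WT natural mating arrays, 6.93, 6.82 and 6.75 in WT IVF, 7.23, 7.33 and 7.37 in Atf7-/- natural mating, and 7.01, 7.13 and 6.99 in Atf7-/- IVF. The IVF arrays lay below the natural mating arrays in both genotypes without overlap. The log2FC was -0.39 (SE 0.13, adjusted P-value 0.0956) for IVF in WT and -0.26 (SE 0.13, adjusted P-value 0.238) for IVF in Atf7-/-, and neither was called. Col18a1 read 10.19, 10.12 and 9.79 on the WT natural mating arrays, against 9.65, 9.61 and 9.81 in WT IVF, which overlapped, with a log2FC of -0.34 (SE 0.14, adjusted P-value 0.166). In Atf7-/- mice it was 9.98, 9.97 and 9.82 against 9.90, 9.47 and 9.93, a log2FC of -0.15 (adjusted P-value 0.572).

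Col8a1, a short-chain collagen of vessel walls, was set apart by 1 array. It read 6.48, 7.28 and 6.61 in Atf7-/- natural mating and 6.37 to 6.80 on the other 9 arrays. The log2FC of -0.37 for IVF in Atf7-/- (SE 0.19, adjusted P-value 0.241) and the interaction of -0.42 (adjusted P-value 0.386) include that array. Col8a2 and Col10a1 were not called.

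The transmembrane collagens Col13a1, Col17a1, Col23a1 and Col25a1 sit in the plasma membrane of the cell that makes them, and types XIII and XVII are known from cell adhesion sites. Col13a1, named here because it passed the adjusted P-value alone and chosen after its values were seen, read 6.92, 6.88 and 7.06 on the WT natural mating arrays, 6.64, 6.70 and 6.54 in WT IVF, 6.87, 6.87 and 6.90 in Atf7-/- natural mating, and 6.89, 6.88 and 6.68 in Atf7-/- IVF. The WT IVF arrays lay below all WT natural mating arrays. The log2FC was -0.32 (SE 0.09, 95% CI -0.52 to -0.13, adjusted P-value 0.0488) for IVF in WT and -0.06 (adjusted P-value 0.740) for IVF in Atf7-/-, with an interaction of 0.26 (SE 0.13, adjusted P-value 0.261). Across the alternatives the value of Col13a1 for IVF in WT ran from -0.36 to -0.25, with adjusted P-values of limma from 0.0248 to 0.149. Its pass was thus lost in some of them.

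The chains were also counted by direction. For IVF in WT, 15 of 44 chains were above 0 (43.9% of all probe sets), with a median log2FC of -0.08 beside -0.04 for all probe sets. With each array centred on its median this was 20 of 44 (55.7%) and -0.01, beside 0.03 for all probe sets. Among the 8 chains above 7.5, 6 were above 0, as were 55.4% of all probe sets of that brightness. Among the 20 chains between 6.5 and 7.5, 5 were above 0 (40.2% of all such probe sets), and among the 16 chains under 6.5, 4 were (38.5%). For ATF7 loss in IVF, 40 of 44 chains were above 0, with a median of 0.09 beside 0.01 for all probe sets, of which 51.9% were above 0. This was 35 of 44 (42.7% of all probe sets) with a median of 0.06 after centring. It was 37 of 44 (50.7%) after a further quantile normalization, and it lay between 36 and 40 with 1 array left out. For IVF in Atf7-/- it was 27 of 44 (51% of all probe sets), and 20 of 44 with a median of -0.01 without Atf7-/- natural mating replicate 1. With ATF7 loss in natural mating it was 19 of 44 (46.6%), and between 14 and 22 with 1 array left out. For the interaction it was 34 of 44 (54.2%), and 25 of 44 (43.7%) after centring. The chains share arrays and neighbouring brightness, so these counts are a description.

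Groups that did not overlap were counted as well. For IVF in WT, 3 chains were higher (Col14a1, Col1a2 and Col6a2) and 15 lower on all IVF arrays, where 14.0% and 15.4% of all probe sets were. For IVF in Atf7-/- it was 6 higher and 3 lower (16.0% and 16.2% of all probe sets), and for ATF7 loss in natural mating 2 higher and 7 lower (15.5% and 16.3%). For ATF7 loss in IVF it was 10 higher and 1 lower (5.78% and 5.09%). After centring each array on its median, the counts became 6 higher and 9 lower for IVF in WT, where 19.2% and 9.45% of all probe sets were. They were 7 and 2 for IVF in Atf7-/- (14.9% and 17.3%), 3 and 3 for ATF7 loss in natural mating (19.2% and 12.8%), and 4 and 2 for ATF7 loss in IVF (3.94% and 7.56%). The 15 lower chains for IVF in WT include cartilage and epithelial chains such as Col2a1, Col9a1, Col9a3, Col11a1, Col11a2 and Col17a1. The array medians were 6.22 to 6.27 in WT IVF and 6.30 to 6.34 in WT natural mating, and the counts after centring are those without this gap.

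Chains that form 1 molecule were compared in their array-to-array deviations from the group mean, for 15 pairs known to share a trimer. Pairs and tests were chosen after the data were seen. Each rho is the plain rank correlation of the deviations, while its permutation p was taken from ranks centred again within each group. For Col1a1 and Col1a2 the deviations correlated with r of 0.94 (exact permutation within groups, two-sided p = 0.00231, adjusted over 15 pairs 0.0347, n = 12 arrays) and rho of 0.84 (exact permutation p = 0.00772, adjusted 0.0579). Without the 2 arrays farthest from the median of Col1a1, both replicate 2 of a natural mating group, r was 0.87. For Col4a1 and Col4a2, r was 0.89 (exact permutation p = 0.0162, adjusted 0.0876) and rho 0.87 (exact permutation p = 0.0108, adjusted 0.0579), and r was 0.86 without the 2 farthest arrays. For Col9a1 and Col9a3, r was -0.09 (exact permutation p = 0.833, adjusted 0.833) and rho -0.10 (exact permutation p = 0.857, adjusted 0.857). Of the 15 pairs, 1 passed after adjustment and 7 had an unadjusted p under 0.05. The median r was 0.67 over the partner pairs and 0.29 over all 946 pairs of chains, or 0.54 and 0.21 with arrays centred on their median. All chains of an array share its RNA and its scaling.

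**Figure D3:**
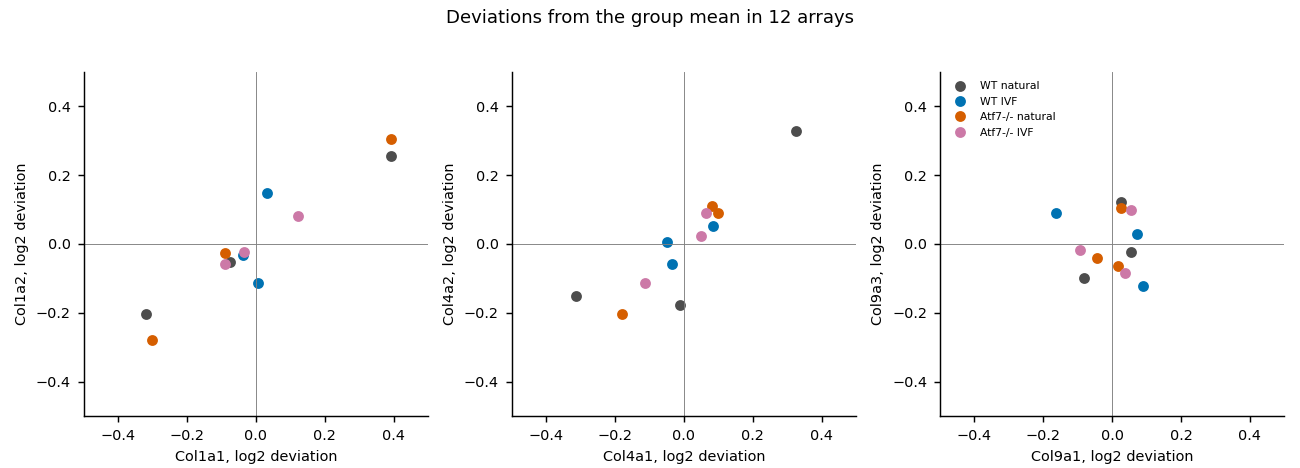
Deviation of each array from its group mean (log2 units on both axes) for Col1a1 against Col1a2, Col4a1 against Col4a2 and Col9a1 against Col9a3, with 1 point per array and colours for the 4 groups. Points of the first and middle panels rise together (r = 0.94 and 0.89), and those of the last do not (r = -0.09).

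The promoter windows of these chains were read from RefSeq (mouse build GRCm38.p6, 250 bases before to 50 after a gene's start). A window was found for 35 of the 44 chains, 38 windows in all, and none was at hand for Col1a1, Col2a1, Col4a3, Col5a2, Col9a3, Col12a1, Col14a1, Col22a1 and Col26a1. ATF7 and its relatives bind the cAMP response element, TGACGTCA. On both strands this stood in 1 of the 38 windows, that of Col24a1, or 2.63%, and in 1.79% of all 32851 windows. The half-site TGACG, which the full element contains, stood in 4 windows (10.5%, against 20.8% of all), those of Col4a5, Col7a1, Col11a2 and Col24a1. The GC box GGGCGG stood in 23 windows (60.5%, against 35.7%), CCAAT in 13 (34.2%, against 37.4%) and TATAAA in 5 (13.2%, against 13.6%). None of these matches says that a factor binds there. The stretches below are the first 250 bases of the Col1a2 window, which passed the adjusted P-value for ATF7 loss in natural mating, the first 260 bases of the Col24a1 window, which holds the full element, and the bases shared by Col4a1 and Col4a2. Capitals mark GC boxes and CCAAT in Col1a2, which has a further CCAAT on the minus strand just past the bases shown, the cAMP response element in Col24a1, and the GC box in the stretch of Col4a1 and Col4a2.
Col1a2, chr6:4505368-4505617, plus strand, the bases before the start: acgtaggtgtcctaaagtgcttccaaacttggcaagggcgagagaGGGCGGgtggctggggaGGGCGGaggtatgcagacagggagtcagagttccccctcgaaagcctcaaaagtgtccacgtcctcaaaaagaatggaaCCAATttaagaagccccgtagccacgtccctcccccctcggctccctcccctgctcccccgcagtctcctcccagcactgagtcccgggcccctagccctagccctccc
Col24a1, chr3:145292222-145292481, plus strand: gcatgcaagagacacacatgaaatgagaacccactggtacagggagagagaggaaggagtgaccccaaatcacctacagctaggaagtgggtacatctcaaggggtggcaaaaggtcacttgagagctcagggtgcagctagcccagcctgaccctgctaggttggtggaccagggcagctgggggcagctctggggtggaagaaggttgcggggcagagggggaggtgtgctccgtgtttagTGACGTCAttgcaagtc
Col4a1 and Col4a2, chr8:11312777-11312854, plus strand: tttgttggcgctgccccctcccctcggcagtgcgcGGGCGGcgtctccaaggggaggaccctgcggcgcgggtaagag

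Col4a1 and Col4a2 lie head to head on chromosome 8, on opposite strands, and their windows share the 78 bases shown. In the gene table, 15 of the 44 chains lie next to another chain, in 8 neighbouring pairs, among them Col4a5 and Col4a6 head to head on chromosome X and Col6a1 and Col6a2 on chromosome 10. Col24a1 read 6.47, 6.26 and 6.40 on the WT natural mating arrays, 6.39, 6.31 and 6.20 in WT IVF, 6.32, 6.34 and 6.33 in Atf7-/- natural mating, and 6.28, 6.36 and 6.35 in Atf7-/- IVF. These overlapped in every comparison, with log2FC between -0.08 and 0.03.

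Genes that modify, cut, cross-link, degrade and bind collagen were read from 6 lists, in the same fit. In the endoplasmic reticulum, chains are hydroxylated on proline and lysine, folded by chaperones and exported. Of 18 measured genes of modification and folding, 1 rose and 0 fell for IVF in WT, 1 rose for IVF in Atf7-/- and 1 rose for ATF7 loss in natural mating, where 2.85%, 3.27% and 3.83% of all probe sets were called as higher. Ppib, cyclophilin B, which speeds the folding of the helix and also acts on other secreted proteins, read 10.80, 11.28 and 11.00 on the WT natural mating arrays, against 11.64, 11.80 and 12.06 in WT IVF. Its log2FC was 0.81 (SE 0.16, adjusted P-value 0.0149), which ended as a call without WT IVF replicate 3 (0.69, adjusted P-value 0.0563). In Atf7-/- mice Ppib read 11.16, 11.12 and 11.28 against 11.60, 11.82 and 12.13, a log2FC of 0.67 (adjusted P-value 0.0206), and this call ended with any array but Atf7-/- natural mating replicate 3 or Atf7-/- IVF replicate 1 left out. P3h2, a prolyl 3-hydroxylase of basement membrane collagen, rose by 0.66 (SE 0.18, adjusted P-value 0.0332) with ATF7 loss in natural mating, and this call held with WT natural mating replicate 2 left out and ended without any of the other 5 arrays.

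The collagen prolyl 4-hydroxylase subunits, whose reaction stabilises the helix, were not called. Log2FC of the α subunits P4ha1, P4ha2 and P4ha3 lay between -0.28 and 0.15 in the 4 comparisons of 2 groups. The β subunit P4hb, which is also a general disulfide isomerase, read 12.18, 12.51 and 12.48 on the WT natural mating arrays, 12.24, 12.22 and 12.38 in WT IVF, 11.92, 11.94 and 11.84 in Atf7-/- natural mating, and 12.33, 12.27 and 12.41 in Atf7-/- IVF. The Atf7-/- natural mating arrays lay below the other 9. P4hb differed by -0.49 (SE 0.10, adjusted P-value 0.00847) for ATF7 loss in natural mating and by 0.44 (adjusted P-value 0.0166) for IVF in Atf7-/-, under the fold threshold, with an interaction of 0.55 (adjusted P-value 0.0437) that reached 0.65 without WT natural mating replicate 1. Serpinh1, the collagen-specific chaperone HSP47, gave 0.45 (adjusted P-value 0.0555) for IVF in WT, 0.43 (adjusted P-value 0.0513) for ATF7 loss in natural mating and an interaction of -0.61 (adjusted P-value 0.0722), which Serpinh1 passed after centring (-0.69, adjusted P-value 0.0466) and with fewer probe sets tested. The prolyl 3-hydroxylase P3h1 gave 0.37 (adjusted P-value 0.0363) for IVF in WT, and its relatives P3h3 and P3h4 stayed between -0.07 and 0.19 in the 4 comparisons of 2 groups. For ATF7 loss in IVF, 0 genes of any of the 6 lists were called, where 0.00575% of all probe sets were.

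Outside the cell, propeptides are cut off and lysyl oxidases cross-link the fibres. Of 11 measured genes of this step, 2 rose for IVF in WT (2.85% of all probe sets were called as higher) and 2 for ATF7 loss in natural mating (3.83%), with 0 falling. Loxl4, a lysyl oxidase, read 6.48, 6.46 and 6.55 on the WT natural mating arrays, 7.54, 7.26 and 7.89 in WT IVF, 6.82, 6.94 and 7.25 in Atf7-/- natural mating, and 7.37, 7.51 and 7.59 in Atf7-/- IVF. The WT natural mating arrays lay below all others. The log2FC was 1.07 (SE 0.16, adjusted P-value 0.00361) for IVF in WT, which was called with any 1 array left out, and 0.49 (adjusted P-value 0.0659) for IVF in Atf7-/-, which was called without Atf7-/- natural mating replicate 3 (0.61, adjusted P-value 0.0445). Lox, the founding lysyl oxidase, read 5.59, 5.41 and 5.55 on the WT natural mating arrays, 6.30, 6.44 and 6.26 in WT IVF, 5.89, 6.44 and 6.04 in Atf7-/- natural mating, and 6.19, 6.59 and 5.98 in Atf7-/- IVF. Again the WT natural mating arrays were the lowest. Lox rose by 0.82 (SE 0.17, adjusted P-value 0.0151) for IVF in WT and by 0.61 (adjusted P-value 0.0330) for ATF7 loss in natural mating, and its interaction was -0.69 (adjusted P-value 0.108), or -0.86 and called without Atf7-/- IVF replicate 2 (adjusted P-value 0.0336).

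The Lox call for IVF in WT ended without WT natural mating replicate 2 (0.77) or WT IVF replicate 2 (0.77), with adjusted P-values of 0.0532 to 0.0548. The Lox call for ATF7 loss held without Atf7-/- natural mating replicate 1 and ended without any of the other 5 arrays. Pcolce, which enhances removal of the C-terminal propeptide, rose by 0.66 (SE 0.16, adjusted P-value 0.0226) with ATF7 loss in natural mating, from 8.12, 8.40 and 8.01 to 8.62, 9.06 and 8.83. That call ended without any array but Atf7-/- natural mating replicate 1 or WT natural mating replicate 2. Loxl1 and Loxl3 lay between -0.25 and 0.10 in the 4 comparisons of 2 groups.

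Matrix metalloproteinases degrade collagen and TIMP proteins inhibit them. Of 21 measured genes of this list, 2 rose and 1 fell for IVF in WT (2.85% and 1.67% of all probe sets), 1 fell for IVF in Atf7-/- (3.51%) and 1 rose for ATF7 loss in natural mating (3.83%). Mmp2, gelatinase A, which degrades denatured and type IV collagen, read 7.67, 7.96 and 6.91 on the WT natural mating arrays, 8.57, 8.83 and 8.83 in WT IVF, 8.09, 8.44 and 8.42 in Atf7-/- natural mating, and 8.50, 8.76 and 8.76 in Atf7-/- IVF. Its log2FC was 1.23 (SE 0.22, adjusted P-value 0.0100) for IVF in WT, called with any 1 array left out, though a fit of only the WT arrays gave an adjusted P-value of 0.0532. It was 0.80 (adjusted P-value 0.0377) for ATF7 loss in natural mating, a call that held with WT natural mating replicate 2 left out and ended without any of the other 5 arrays. Timp2, which inhibits MMP2 and helps activate it, rose from 7.36, 7.74 and 7.06 to 7.98, 8.15 and 8.08 for IVF in WT (log2FC 0.68, adjusted P-value 0.0208).

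Timp3, an inhibitor bound to the matrix, went the other way in both genotypes. It fell for IVF in WT from 8.28, 8.07 and 7.58 to 7.16, 7.56 and 7.14 (log2FC -0.69, SE 0.18, adjusted P-value 0.0384), and for IVF in Atf7-/- from 8.36, 8.44 and 8.25 to 7.88, 7.51 and 7.58 (log2FC -0.69, adjusted P-value 0.0278). The groups did not overlap in either genotype. These calls depended on single arrays. Timp2 and Timp3 for IVF in WT each ended with any of 4 of the 6 arrays left out, all but WT natural mating replicate 2 and WT IVF replicate 1 for Timp2 and all but WT natural mating replicate 3 and WT IVF replicate 2 for Timp3. Timp3 for IVF in Atf7-/- held with Atf7-/- IVF replicate 1 left out and ended without any of the other 5.

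**Figure D4:**
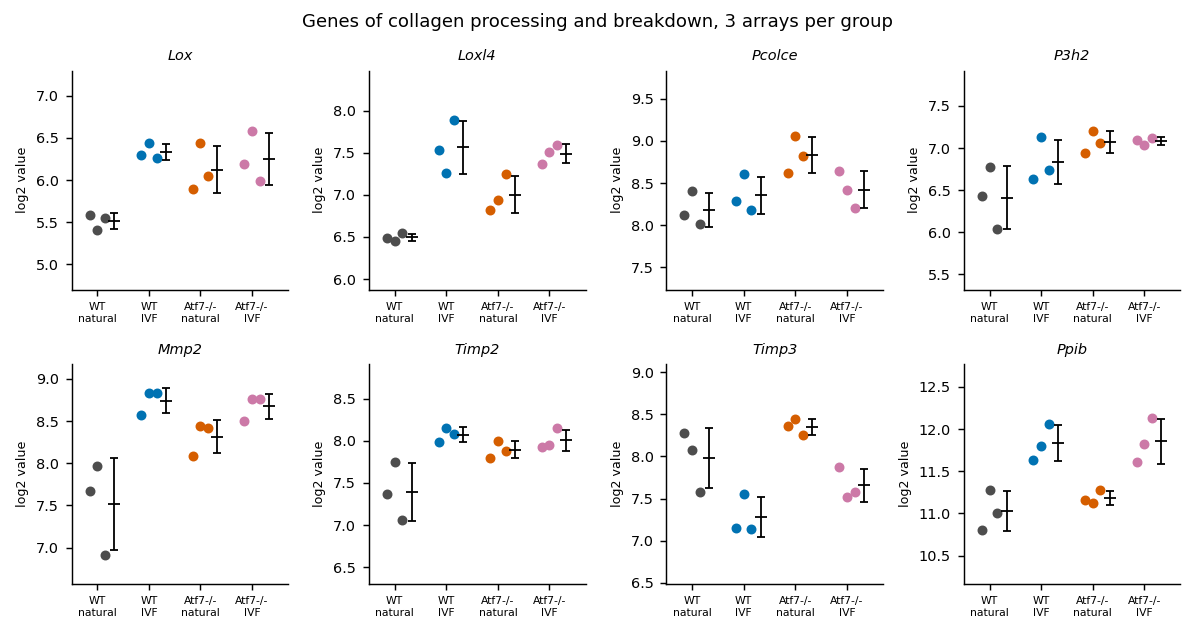
Log2 values (y axis, 2.6 log2 units in every panel) of the cross-linking enzymes Lox and Loxl4, the processing factor Pcolce, the hydroxylase P3h2, the protease Mmp2, its inhibitors Timp2 and Timp3, and the isomerase Ppib on each array, with bars for mean and SD (n = 3). Lox, Loxl4 and Mmp2 were lower on all 3 WT natural mating arrays than on every other array, and Timp3 was lower in IVF than in natural mating in both genotypes.

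Of 25 proteins that bind collagen fibres or basement membranes, 5 rose and 0 fell for IVF in WT (2.85% and 1.67% of all probe sets). For IVF in Atf7-/- 1 rose and 1 fell (3.27% and 3.51%), and for ATF7 loss in natural mating 4 rose and 0 fell (3.83% and 3.67%). For ATF7 loss in IVF 0 were called, where 0.00575% of all probe sets were. The median log2FC of the list was 0.35, 0.02, 0.29 and -0.01 in this order, beside -0.04, 0.01, -0.02 and 0.01 for all probe sets. The small leucine-rich proteoglycan Fmod, which binds fibrillar collagen, read 5.54, 5.71 and 5.59 on the WT natural mating arrays, against 6.70, 6.76 and 6.69 in WT IVF, a log2FC of 1.10 (SE 0.12, adjusted P-value 0.00112). Its relative Ogn rose by 1.11 (SE 0.16, adjusted P-value 0.00306), Efemp1, a fibulin, by 0.83 (adjusted P-value 0.0116) and Lama2, a laminin chain of basement membranes, by 0.76 (adjusted P-value 0.00352), and these 4 calls held with any 1 array left out. Thbs1, thrombospondin, rose by 0.69 (adjusted P-value 0.0400), a call that held with WT natural mating replicate 3 left out and ended without any of the other 5 arrays. In Atf7-/- mice, Fmod, Efemp1 and Lama2 were also higher after IVF, without a call. Their means after natural mating and IVF were 6.20 and 6.60 for Fmod, 7.82 and 8.18 for Efemp1, and 7.06 and 7.59 for Lama2. Among Fmod, Efemp1 and Lama2, only Fmod had a called interaction.

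For ATF7 loss in natural mating, Prelp, a proteoglycan that links basement membranes to collagen, rose from 8.92, 9.03 and 9.25 to 10.23, 10.15 and 10.26 (log2FC 1.15, SE 0.14, adjusted P-value 0.000406). Nid1, nidogen, which joins laminin to type IV collagen, rose by 1.13 (SE 0.19, adjusted P-value 0.00263) and Thbs1 by 0.97 (adjusted P-value 0.00502), and these calls and that of Prelp held with any 1 array left out. Sparc, a collagen-binding protein, rose by 0.61 (adjusted P-value 0.00275), under the fold threshold without any of 4 arrays (all but Atf7-/- natural mating replicate 1 and WT natural mating replicate 2). For IVF in Atf7-/-, Prelp fell by 0.82 on the log2 scale (adjusted P-value 0.0031) and Ogn rose by 0.61 (adjusted P-value 0.0277), the latter ending without any of 4 of the 6 arrays (all but Atf7-/- natural mating replicate 2 and Atf7-/- IVF replicate 1).

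Of 8 collagen receptor genes, 0 were called for IVF in Atf7-/- (6.78% of all probe sets) or ATF7 loss in natural mating (7.50%). It was also 0 for ATF7 loss in IVF (0.00575%), and 1 rose for IVF in WT (2.85%). Itga1, the integrin chain that binds type IV and type I collagen, rose by 0.61 (SE 0.10, adjusted P-value 0.00462), and it was 0.57 and not called without WT IVF replicate 2. For IVF in Atf7-/- Itga1 was higher by 0.48 (adjusted P-value 0.00790), passing the adjusted P-value but not the fold threshold, and its interaction was -0.13 (adjusted P-value 0.620). Of 17 genes of TGF-β and profibrotic signalling, 2 rose for IVF in WT (2.85% of all probe sets), 1 fell for IVF in Atf7-/- (3.51%) and 2 rose for ATF7 loss in natural mating (3.83%), and in the first and the last of these comparisons 1 of the genes that rose was Thbs1, which is also on the list of binding proteins. The ligand Pdgfc rose by 0.91 (SE 0.14, adjusted P-value 0.00392) for IVF in WT. In Atf7-/- mice its mean was 7.36 after natural mating and 7.88 after IVF, without a call. The ligand Pdgfa, a mitogen for mesenchymal cells, read 7.93, 8.10 and 7.68 on the WT natural mating arrays, 8.12, 8.01 and 8.06 in WT IVF, 8.76, 9.15 and 8.74 in Atf7-/- natural mating, and 8.02, 8.41 and 7.97 in Atf7-/- IVF. It rose by 0.99 (SE 0.15, adjusted P-value 0.00198) with ATF7 loss in natural mating and fell by 0.75 on the log2 scale (adjusted P-value 0.00888) with IVF in Atf7-/-. The Pdgfc and Pdgfa calls held with any 1 array left out.

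Markers of cell types moved with some of these groups. The counts of called markers stand against these shares of all probe sets: 2.85% higher and 1.67% lower for IVF in WT, 3.27% and 3.51% for IVF in Atf7-/-, and 3.83% and 3.67% for ATF7 loss in natural mating. Of 19 markers of hepatic stellate cells and fibroblasts, which also hold Dcn and Lum of the list of binding proteins, 2 rose for IVF in WT (Reln by 0.79 and Hgf by 0.71), with a median log2FC of 0.41, and 6 rose for ATF7 loss in natural mating, among them Acta2 by 1.39 and Pdgfrb by 0.89, with a median of 0.20. The mean over the list lay between 7.82 and 8.09 on the WT natural mating arrays, 8.23 and 8.50 in WT IVF, 8.18 and 8.38 in Atf7-/- natural mating, and 8.40 and 8.43 in Atf7-/- IVF, so that the WT natural mating arrays were the lowest. The Reln call ended without WT IVF replicate 2, and that of Hgf without WT natural mating replicate 3 or WT IVF replicate 3. Over the same arrays, the mean of the 44 chains lay between 6.92 and 6.99 on the WT natural mating arrays, 6.88 and 6.95 in WT IVF, 6.89 and 7.09 in Atf7-/- natural mating, and 6.96 and 7.08 in Atf7-/- IVF.

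Of 7 markers of the mesothelium that covers the liver, 4 rose for IVF in WT, among them Gpm6a by 1.71 (SE 0.16, adjusted P-value 0.000551) and Upk3b by 1.27 (adjusted P-value 0.00132), and 1 rose for IVF in Atf7-/- (Gpm6a by 0.95). The mean over the list was 6.66 to 6.69 on the WT natural mating arrays, 7.41 to 7.52 in WT IVF, 6.80 to 7.26 in Atf7-/- natural mating, and 7.32 to 7.34 in Atf7-/- IVF. The defining marker Msln read 5.86, 5.86 and 6.04 after natural mating in WT, and 6.33, 6.64 and 6.55 after IVF. In both IVF comparisons 6 of the 7 log2FC were above 0, and Krt8 went the other way without a call. Krt8 gave -0.09 (adjusted P-value 0.832) for IVF in WT and -0.62 (adjusted P-value 0.0871) for IVF in Atf7-/-. Its level enters the list mean, and among naturally mated mice it averaged 11.40 in WT and 12.07 in Atf7-/-. Of 13 endothelial markers, 1 rose for IVF in WT and 2 for ATF7 loss in natural mating, and of 12 Kupffer cell markers 1 fell for IVF in WT, and 1 rose and 4 fell for ATF7 loss in natural mating. Of 7 cholangiocyte markers 0 were called for IVF in WT and 1 rose for ATF7 loss in natural mating. Of 5 blood cell markers 1 rose for IVF in WT, 2 rose for IVF in Atf7-/- and 1 fell for ATF7 loss in natural mating. For IVF in Atf7-/- no endothelial, Kupffer cell or cholangiocyte marker was called. Of 8 hepatocyte markers, 1 fell for IVF in Atf7-/- and 1 rose for ATF7 loss in natural mating, both of them Hnf4a (-0.76, adjusted P-value 0.00252, and 0.68, adjusted P-value 0.0039), with an interaction of -0.74 (adjusted P-value 0.0260), and the mean of this list lay between 12.74 and 12.93 on all arrays. The part of the cell makeup of the samples in the values of the collagen chains and their companions was not tested.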

How the data were processed

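Liver RNA of 12 mice was measured on Affymetrix Mouse Gene 1.0 ST arrays, in 4 groups of 3. RMA (affy package) was run by the authors on the scans, and the log2 values they deposited, 1 for each probe set and array, were taken unchanged. For software versions and genome build, the sources used here name none. The sample labels give an age of 4 weeks and the article 3 weeks. Of 34760 probe sets, 21640 carry 1 symbol, 1321 several and 11799 none, and only the first kind was named. RMA summarises probes over all arrays together and compresses differences of dim probe sets, and the number of arrays limits the precision.

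A limma model (version 3.58.1, R 4.3.3) held 1 mean per group over all 12 arrays, with empirical Bayes variances, and P-values were adjusted by Benjamini-Hochberg over all probe sets. The step was tested on simulated data. Partner chains, promoters and figures used Python 3.11.15, pandas 2.3.3, numpy 2.4.6 and matplotlib 3.10.9. Named chains were 13 chains of liver matrix, the 3 largest changes of each contrast and any called chain, 17 in all, with Col13a1 added after its values were seen, and other chains named to account for all members. Companion genes were up to 4 called members per list and contrast and the prolyl hydroxylases, lysyl oxidases and Serpinh1. Marker genes with values were chosen after their values were seen. The members and lists were chosen with earlier results of these data known. Alternatives were a fit of only the compared groups, replicate number as block, robust variances with an intensity trend, weights per array, centring on array medians, another quantile normalization, removal of dim probe sets, restriction to probe sets with 1 symbol, averaging the probe sets of a symbol, omission of each array in turn, and other thresholds. Counts of groups that do not overlap, direction counts and centred partner correlations were added after the data were seen.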

Additional observations from a re-analysis of the deposited data

Results flagged for a closer look

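By the interaction of the limma fit, a difference between the genotypes in the response to IVF was not shown for any collagen chain, though for 13 of 44 chains the 95% interval reaches 0.6 in size. The intervals of Col12a1 (-1.24 to -0.05), Col1a2 (-1.07 to -0.10) and, in the other direction, Col16a1 (0.0363 to 0.5999) exclude 0 before adjustment. Of 99 companion genes, 5 were called (5.05%, beside 6.18% of all probe sets), so that their share over both directions was near that of all probe sets. By direction, 5 were lower and 0 higher (3.46% and 2.72% of all probe sets). Of the 25 binding proteins 4 were lower and 0 higher, with a median of -0.27 beside 0.03 for all probe sets. These counts are a description and were not tested over the lists. The interaction (log2FC of IVF in Atf7-/- minus that in WT) was -1.16 for Prelp (SE 0.19, adjusted P-value 0.00600), from 0.34 in WT to -0.82 in Atf7-/-, and it held with any 1 array left out. It was -1.14 for Nid1 (adjusted P-value 0.0269), a call that ended when any of 6 of the 12 arrays was left out, -1.01 for Thbs1 (adjusted P-value 0.0395), ended by any of 8, -0.91 for Pdgfa (adjusted P-value 0.0304), ended by any of 7, and -0.71 for Fmod (adjusted P-value 0.0305), ended by any of 8. The Atf7-/- natural mating arrays read 9.42, 9.67 and 9.79 for Nid1 and 7.02, 7.75 and 7.43 for Thbs1, the highest group for both.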

How the results depend on the processing

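The count of called chains was 0 in each of the 5 contrasts, and it stayed 0 in 85 alternatives and was above 0 in 5. Without the fold threshold it was 2 for IVF in WT (Col14a1 and Col13a1) and 2 for ATF7 loss in natural mating (Col14a1 and Col1a2). With 1 array left out it ranged from 0 to 1 for IVF in WT, with Col14a1 called without WT natural mating replicate 2, and from 0 to 1 for ATF7 loss in natural mating, with Col1a2 called without WT natural mating replicate 2 or Atf7-/- natural mating replicate 1. Col6a2 turned from 0.11 to -0.0092 for ATF7 loss in natural mating without Atf7-/- natural mating replicate 2, with a range of -0.0092 to 0.1776 over the arrays left out. Values of uncalled genes under 1 SE were read as having no stated direction. The log2 fold change of a named gene was counted once for each contrast and alternative. Of these, 3256 stayed on their side of the threshold, 107 lost and 19 gained a call, and 7 moved by more than the spread between replicates, among them Col5a1 for IVF in WT (0.05 after median centring). Most of the 3256 were not called in the main fit and had no call to lose, so they are no base for the share of calls lost. With the replicate number as a block, 0 chains were called in each contrast, and the Thbs1 calls for IVF in WT and for the interaction ended, and it changed no other call of a named gene. Over all alternatives the adjusted P-value of Thbs1 for IVF in WT ran from 0.0172 to 0.123. The replicate numbers were not shown to pair the arrays, and a batch shared by number was not tested. Deviations of arrays with 1 number correlated from -0.12 to 0.24, 3 of 18 of them over 0.1, and 5 of 12 arrays correlated best with their own number. For arrays of different groups and numbers the correlations ran from -0.20 to 0.19. A fit of only the compared groups, which has fewer samples, ended the calls of Mmp2, Timp2, Timp3, Thbs1, Reln and Hgf for IVF in WT, of Ogn for IVF in Atf7-/-, and of P3h2, Lox and Mmp2 for ATF7 loss in natural mating. Array weights ended those of Timp2 and Itga1 for IVF in WT and of P3h2, Pcolce and Sparc for ATF7 loss, centring those of Timp3 for IVF in WT and Ogn for IVF in Atf7-/-, and quantile normalization those of Itga1, Ogn (IVF in Atf7-/-) and Sparc. The number of arrays limits what could be called, and for 7 chains for IVF in WT the interval reaches a change of 0.6.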
